A study of Arabidopsis thaliana with 30 samples.

Results

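The genes followed here were HRA1, PDC2, AT4G39675, AT4G10270 and AT4G27450, which are known for their response to low oxygen in Arabidopsis thaliana. They were chosen by name, as the probe sets annotated to these genes, and each gene had 1 probe set: 258930_at for HRA1, 248138_at for PDC2, 252882_at for AT4G39675, 255807_at for AT4G10270 and 253874_at for AT4G27450. These are 5 of the 22746 probe sets tested. The genes, and the lists of other genes used below, were chosen with earlier results of these data known. The shares of all probe sets given beside them are therefore a description and no independent test. The probe annotation lists HRA1 under its locus name AT3G10040, and RefSeq's gene table gives HRA1 as a synonym of that locus.

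Plant cells that run short of oxygen cannot keep up mitochondrial respiration and turn to fermentation, in which pyruvate decarboxylase makes acetaldehyde from pyruvate and alcohol dehydrogenase makes ethanol from acetaldehyde. In Arabidopsis the transcription factors of ethylene response factor group VII are broken down while oxygen is present and switch on low oxygen genes when it is scarce. Seeds take up water through dense tissue and an intact coat, and fermentation in imbibed seeds before the radicle emerges is a textbook feature of germination. Oxygen was not among the measurements.

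Total RNA of whole Col-0 seed was hybridized to 30 one-colour Affymetrix arrays, 3 for each of 10 groups, and 80 mg of seed went into each extraction. The groups were freshly harvested seed (H), dry seed (0 h), which had been left for 14 days by the treatment protocol and 15 days by the design text, seed stratified for 1, 12 and 48 h (1 h S, 12 h S and 48 h S), and seed moved into light after stratification for 1, 6, 12, 24 and 48 h (1 h SL, 6 h SL, 12 h SL, 24 h SL and 48 h SL). All plated seed had been surface sterilized and lay on MS medium, a standard plant salt medium. Stratification, a cold wet treatment that releases dormancy, was at 4 °C in the dark, and the light groups were at 22 °C under 100 µE of continuous light, so light, warmth and time after transfer cannot be told apart. Likewise water uptake, cold and time cannot be told apart between dry and stratified seed. Seed, embryo, endosperm and coat were extracted together, and in such bulk RNA fewer cells of a type and less RNA per cell cannot be told apart.

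The deposited values are intensities on a linear scale, as the authors normalized them, and errors after ± are SDs of 3 arrays. Differences are of log2(intensity + 16), a scale that understates the change of dim probe sets, and their standard errors come from a limma fit to all 30 arrays. A probe set is called higher or lower where its adjusted p over all 22746 probe sets is under 0.05 and its difference is at least 1, which is a doubling on that scale. Where all arrays of a group are said to lie above or below those of another, this describes 3 arrays each. The share of all probe sets that did so in a single step was not counted. The labels do not say whether the arrays of a group come from separate cultures, so each p-value measures the spread among these arrays alone, and that spread may be technical.

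Median intensity per array ran from 11.8 to 19.4 and the group means of these medians, from harvest to 48 h SL, lay between 11.8 and 14.1 up to the end of stratification and between 14.4 and 19.1 in light. Replicate arrays correlated at 0.985 to 0.998. Of 16 seed storage and oil body genes listed as markers of seed tissue, 3 had a probe set that names them. The oleosin AT3G01570, an oil body coat protein, averaged 16.6 in 48 h SL and 13362 in dry seed. The cupin AT1G03890 averaged 5.19 in 48 h SL and 1749 in dry seed, and the oleosin OLEO3 averaged 52.2 in 48 h SL and 640.2 in dry seed, so the seed markers were bright in dry seed and 2 of 3 were near the array median or below it in 48 h SL.

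HRA1 encodes a trihelix transcription factor that in Arabidopsis restrains the group VII factors, and its transcript is itself induced by low oxygen. Its intensities were 8.53, 8.0 and 6.64 at harvest, 8.88, 8.16 and 8.39 in dry seed and 7.60, 9.22 and 7.5 in 1 h S. They were 121, 118 and 121 in 12 h S and 51.2, 62.0 and 46.2 in 48 h S. In the light groups they were 763, 745 and 631 in 1 h SL, 144, 140 and 159 in 6 h SL, 352, 277 and 251 in 12 h SL, 68.9, 92.3 and 86.1 in 24 h SL and 9.29, 15.9 and 25.8 in 48 h SL. The gene was at the dim end of the array in all 9 arrays up to 1 h of stratification and had 2 high points in light, at 1 h and at 12 h, with lower arrays at 6 h between them.

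PDC2 encodes a pyruvate decarboxylase, the enzyme of the first step of ethanolic fermentation. Its intensities were 2448, 2220 and 2933 at harvest, 2370, 2821 and 2563 in dry seed, 3210, 3108 and 3302 in 1 h S, 4595, 4483 and 4334 in 12 h S and 592, 530 and 657 in 48 h S. In light they were 409, 468 and 498 at 1 h, 128, 171 and 163 at 6 h, 104, 112 and 109 at 12 h, 158, 171 and 138 at 24 h and 208, 229 and 224 at 48 h. All 12 arrays up to 12 h of stratification lay above all 18 later ones, whereas the 9 dimmest arrays of HRA1 were those up to 1 h of stratification.

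AT4G39675 encodes a small protein of unknown function whose transcript is induced by low oxygen in Arabidopsis. Its intensities were 311, 330 and 269 at harvest, 348, 247 and 279 in dry seed, 289, 214 and 245 in 1 h S, 3201, 3376 and 3172 in 12 h S and 1062, 1090 and 1119 in 48 h S. In light they were 472, 631 and 700 at 1 h, 46.5, 42.8 and 103 at 6 h, 12.6, 6.26 and 18.8 at 12 h, 75.4, 79.5 and 51.2 at 24 h and 45.2, 62.3 and 137 at 48 h. The 12 h S arrays were the brightest and the 12 h SL arrays the dimmest of the 30, with no overlap with any other group at either end.

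AT4G10270 belongs to a family of small proteins named for their response to wounding. Its intensities were 12.2, 13.6 and 17.5 at harvest, 16.2, 12.9 and 13.9 in dry seed, 18.0, 17.1 and 25.3 in 1 h S, 4129, 4396 and 4688 in 12 h S and 1086, 1100 and 948 in 48 h S. In light they were 2647, 2664 and 2963 at 1 h, 1751, 1178 and 1878 at 6 h, 2299, 2571 and 2507 at 12 h, 1194, 1018 and 1018 at 24 h and 108, 201 and 255 at 48 h. The 9 arrays up to 1 h of stratification were near the array median and the other 21 were all brighter. RefSeq's gene table places a related locus, AT4G10265, next to this gene, and no probe set names it, so signal from a near copy in this probe set was not separated.

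AT4G27450 encodes a protein related to aluminium-induced proteins. Its intensities were 6475, 6954 and 6500 at harvest, 6785, 6639 and 6518 in dry seed, 6671, 5978 and 6192 in 1 h S, 5476, 5995 and 6252 in 12 h S and 2490, 2978 and 2707 in 48 h S. In light they were 4753, 4010 and 5127 at 1 h, 5872, 5310 and 7287 at 6 h, 8714, 10048 and 11096 at 12 h, 4128, 3971 and 4674 at 24 h and 46.6, 258 and 519 at 48 h. The 3 arrays at 48 h SL were its dimmest and, as a ratio, spread furthest apart, and all others were at 2490 or above.

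**Figure D1:**
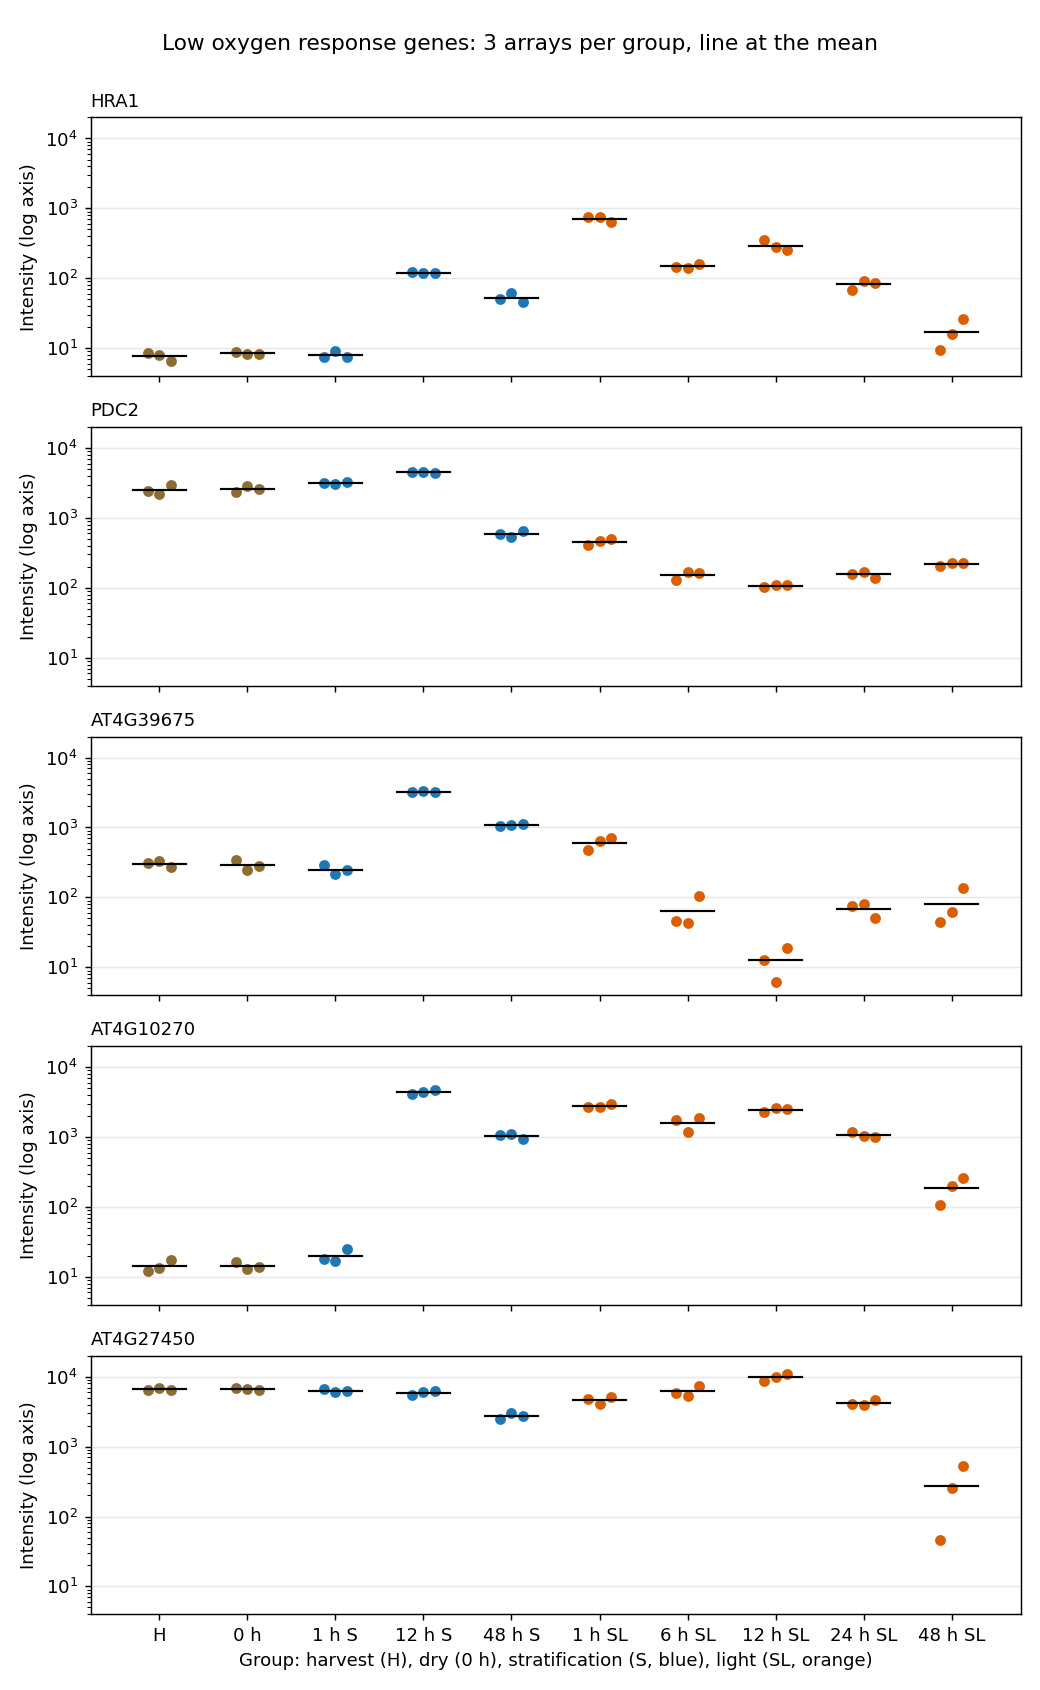
Intensity (log axis) of each of the 5 genes on all 30 arrays by group, from freshly harvested seed (H) and dry seed (0 h) through stratification (S, blue) to light (SL, orange). Points are arrays and lines are means of 3. AT4G10270 averaged 4404 in 12 h S and 20.1 in 1 h S, HRA1 peaked at 713 in 1 h SL, and AT4G27450 fell to 275 in 48 h SL.

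Ripening and the first hour of stratification left all 5 genes uncalled. In dry seed against freshly harvested seed the arrays of every gene overlapped, differences ran from -0.06 for AT4G39675 to 0.05 for HRA1, and 0.321% of all probe sets were called in either direction. In 1 h S against dry seed 0.514% of all probe sets were called. PDC2 was 0.31 higher there (SE 0.10, adjusted p = 0.0452), with all 3 arrays above those of dry seed but a difference below the size threshold. The 95% interval of AT4G27450 in that step ran from -0.94 to 0.77, so this fit could not detect a change of up to about that size. The width takes in the spread of its arrays at 48 h SL, not only the groups compared. With 48 h SL left out of the fit, a choice made after the data were seen, the gene was still not called (adjusted p = 0.691).

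The 12 h S group set 3 of the 5 genes apart from 1 h S, and 2.88% of all probe sets were called higher in that step. AT4G10270 averaged 4404 ± 279 in 12 h S and 20.1 ± 4.53 in 1 h S (n = 3 each), a difference of 6.94 (SE 0.19, adjusted p = 1.23e-17), rank 2 among the rises of all 22746 probe sets. AT4G39675 averaged 3250 ± 110 in 12 h S and 249 ± 37.8 in 1 h S, a difference of 3.63 (SE 0.27, adjusted p = 5.12e-10). HRA1 averaged 120 ± 1.58 in 12 h S and 8.11 ± 0.97 in 1 h S, a difference of 2.50 (SE 0.13, adjusted p = 1.48e-12). The arrays of these 3 genes did not overlap between the groups, but how many of all probe sets showed this was not counted. Of the 3 seed markers 0 were called in that step.

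The other 2 genes, both bright in dry seed already, were not called in that step. PDC2 averaged 4471 ± 131 in 12 h S and 3207 ± 96.8 in 1 h S, all arrays higher, but the difference of 0.48 (adjusted p = 0.0016) was under the size threshold. AT4G27450 differed by -0.09 with a 95% interval of -0.94 to 0.76 (adjusted p = 0.958), and its arrays overlapped. That interval too takes in the spread at 48 h SL, and with that group left out of the fit the adjusted p was 0.687. Against dry seed, 4.02% of all probe sets were called higher in 12 h S, and the same 3 genes were: by 7.19 for AT4G10270, 3.42 for AT4G39675 and 2.48 for HRA1. PDC2 was 0.79 higher than in dry seed (adjusted p = 2.86e-06), a ratio of means of 1.73, and was not called. The 2 comparisons share the 12 h S arrays.

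From 12 h to 48 h of cold, 4 of the 5 genes were called lower, as were 8.35% of all probe sets. PDC2 averaged 593 ± 63.6 in 48 h S and 4471 ± 131 in 12 h S, a difference of -2.89 (SE 0.10, adjusted p = 2.27e-16). AT4G10270 was lower by a difference of -2.06 and AT4G39675 by a difference of -1.56. AT4G27450 averaged 2725 ± 244 in 48 h S and 5908 ± 396 in 12 h S, a difference of -1.11 (SE 0.41, adjusted p = 0.032). All 3 arrays of each gene lay below those of 12 h S, but how many of all probe sets showed this was not counted. Seed markers moved in the same step, 2 of 3 being called lower: AT1G03890 averaged 230.3 in 48 h S and 1455 in 12 h S, and OLEO3 averaged 171 in 48 h S and 430.2 in 12 h S. The third, AT3G01570, was not called lower and averaged 9283 in 48 h S and 11462 in 12 h S. The summed intensity of the 3 markers, most of it from AT3G01570, ran from 8773 to 10389 in 48 h S and from 12547 to 13850 in 12 h S. The part of the markers in the result was not tested.

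The AT4G27450 call in that step rests on every array: without any 1 of the 6 the adjusted p was 0.0515 to 0.0860. Its standard error takes in the wide spread at 48 h SL, and with that group left out of the fit, a choice made after the data were seen, the adjusted p was 2.35e-08. HRA1 averaged 53.1 ± 8.05 in 48 h S and 120 ± 1.58 in 12 h S, all arrays lower, and its difference of -0.99 (adjusted p = 1.42e-06) was just under the size threshold. It was called with 1 in place of 16 added to each intensity (-1.17), after quantile normalization (-1.02), after centring on the median (-1.09) and without replicate 2 of 48 h S (-1.08).

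Set against dry seed, the 48 h S group showed all 5 genes called in 1 direction or the other, 3 higher and 2 lower, where 21.3% of all probe sets were called. AT4G10270 was higher by 5.13, AT4G39675 by 1.86 and HRA1 by 1.49. PDC2 was lower by a difference of -2.10 and AT4G27450 by a difference of -1.29. HRA1, AT4G39675 and AT4G10270, called higher than dry seed in 12 h S, were thus above it in 48 h S too, while PDC2, which had been 0.79 above dry seed in 12 h S, and AT4G27450 lay below it.

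The first hour of light and warmth set HRA1 and AT4G10270 apart from 48 h S, and 0.567% of all probe sets were called higher in that step. HRA1 averaged 713 ± 71.5 in 1 h SL and 53.1 ± 8.05 in 48 h S, 13.4 times as high, a difference of 3.40 (SE 0.13, adjusted p = 8.06e-14) and rank 14 among the rises of all probe sets. AT4G10270 averaged 2758 ± 178 in 1 h SL and 1045 ± 84.0 in 48 h S, a difference of 1.39 (SE 0.19, adjusted p = 3.06e-05). Arrays did not overlap between the groups for either gene, but how many of all probe sets showed this was not counted.

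The remaining genes were not called in the first hour of light. Their arrays did not overlap with those of 48 h S, but how many of all probe sets showed this was not counted. PDC2 differed by -0.36 (adjusted p = 0.0364) and AT4G39675 by -0.86 (adjusted p = 0.0596), both with all arrays lower. AT4G27450 was 0.76 higher (adjusted p = 0.42, and 9.62e-05 with 48 h SL left out of the fit), with all arrays higher and a difference under the size threshold in both fits.

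Between 1 h and 6 h of light 3 genes were called lower, as were 4.39% of all probe sets. AT4G39675 averaged 64.2 ± 33.9 in 6 h SL and 601 ± 117 in 1 h SL, a difference of -3.00 (SE 0.27, adjusted p = 5.30e-09). HRA1 averaged 148 ± 9.79 in 6 h SL and 713 ± 71.5 in 1 h SL, a difference of -2.15 (SE 0.13, adjusted p = 1.13e-11). PDC2 averaged 154 ± 22.9 in 6 h SL and 458 ± 45.5 in 1 h SL, a difference of -1.49 (SE 0.10, adjusted p = 7.73e-11). AT4G10270 had all arrays lower in 6 h SL, with a difference of -0.80 (adjusted p = 0.00161) under the size threshold, and AT4G27450 had all arrays higher, with a difference of 0.40 (adjusted p = 0.661). Of the seed markers 2 of 3 were called lower: AT3G01570 averaged 2130 in 6 h SL and 8266 in 1 h SL, and AT1G03890 averaged 33.3 in 6 h SL and 199.96 in 1 h SL. The 3 summed to between 2272 and 2529 in 6 h SL and between 8566 and 8824 in 1 h SL, and whether this bears on the 3 genes was not tested.

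At 12 h against 6 h of light 1 of the 5 genes was called, AT4G39675, and 4.34% of all probe sets were called in either direction. It averaged 12.6 ± 6.27 in 12 h SL and 64.2 ± 33.9 in 6 h SL, a difference of -1.44 (SE 0.27, adjusted p = 0.000245). The other 4 genes were not called, HRA1, AT4G10270 and AT4G27450 being higher in 12 h SL by 0.91, 0.64 and 0.70 and PDC2 lower with a difference of -0.45. Their arrays did not overlap between the groups, but how many of all probe sets showed this was not counted. HRA1 passed the size threshold without replicate 3 of 12 h SL (1.01), and the adjusted p of AT4G27450 was 0.281, or 3.99e-05 with 48 h SL left out of the fit. The seed marker AT3G01570 was called lower in this step and in the next, averaging 407 in 12 h SL and 149 in 24 h SL, while the other 2 were called in neither, and their part in these results was not tested.

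The 12 h SL group held the highest AT4G27450 and the lowest PDC2 and AT4G39675 intensities of the course. It was therefore compared with 48 h S directly, a comparison added after the data were seen, in which 19.2% of all probe sets were called in either direction. As 12 h SL was picked for the extreme values of AT4G27450, PDC2 and AT4G39675, their calls here are a description and no test. All 5 genes were called: HRA1 higher by 2.15, AT4G27450 by 1.86 (adjusted p = 0.000527) and AT4G10270 by 1.22, with PDC2 lower by a difference of -2.29 and AT4G39675 by a difference of -5.30. AT4G39675 averaged 12.6 ± 6.27 in 12 h SL and 1091 ± 28.6 in 48 h S.

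From 12 h to 24 h of light HRA1, AT4G10270 and AT4G27450 fell and AT4G39675 rose, where 7.22% of all probe sets were called in either direction. HRA1 averaged 82.4 ± 12.1 in 24 h SL and 293 ± 52.2 in 12 h SL, a difference of -1.65 (SE 0.13, adjusted p = 9.20e-10). AT4G10270 averaged 1077 ± 101 in 24 h SL and 2459 ± 142 in 12 h SL, a difference of -1.18 (adjusted p = 2.62e-05). The rise of AT4G39675, 68.7 ± 15.3 in 24 h SL and 12.6 ± 6.27 in 12 h SL, was 1.58 (adjusted p = 5.90e-05) and took the gene back to an intensity that overlapped with its 6 h SL arrays.

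AT4G27450 averaged 4258 ± 369 in 24 h SL and 9953 ± 1194 in 12 h SL, a difference of -1.22 (SE 0.41, adjusted p = 0.0226). That call was lost without replicate 2 or 3 of 12 h SL (adjusted p = 0.0544 and 0.0700) and without replicate 1 or 2 of 24 h SL (0.0576 and 0.0636), while the adjusted p was 1.24e-08 with 48 h SL left out of the fit. PDC2 had all arrays higher in 24 h SL, by 0.47 (adjusted p = 0.00094), under the size threshold.

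Between 24 h and 48 h of light the same 3 genes fell again, where 3.04% of all probe sets were called lower. AT4G27450 averaged 275 ± 237 in 48 h SL and 4258 ± 369 in 24 h SL, a difference of -4.35 (SE 0.41, adjusted p = 8.60e-09), rank 4 among the falls of all 22746 probe sets. AT4G10270 averaged 188 ± 74.6 in 48 h SL and 1077 ± 101 in 24 h SL, a difference of -2.49 (SE 0.19, adjusted p = 2.50e-10). HRA1 averaged 17.0 ± 8.32 in 48 h SL and 82.4 ± 12.1 in 24 h SL, a difference of -1.60 (SE 0.13, adjusted p = 1.20e-09).

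PDC2 did not follow them in that step. It averaged 220 ± 10.8 in 48 h SL and 156 ± 16.5 in 24 h SL, all arrays higher, by 0.47 (adjusted p = 0.000854), which was under the size threshold. AT4G39675 had overlapping arrays and a difference of 0.11 with a 95% interval of -0.46 to 0.67 (adjusted p = 0.967).

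**Figure D2:**
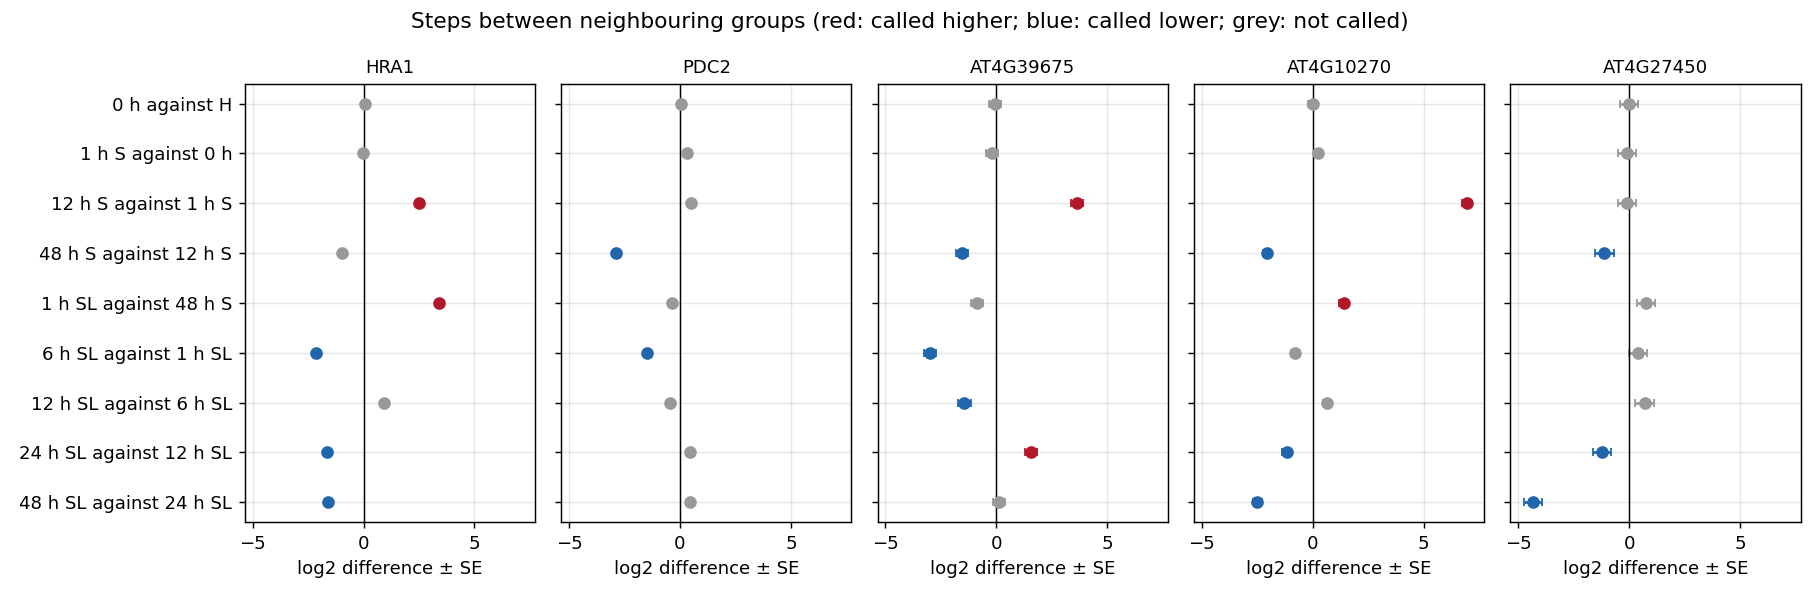
Log2 difference ± SE of each gene in the 9 steps between neighbouring groups, the later group minus the earlier (dry seed minus freshly harvested seed in the first row). Red points were called higher, blue points called lower and grey points not called. HRA1, AT4G39675 and AT4G10270 each had 5 called steps, AT4G27450 had 3 and PDC2 had 2, all of the last 2 genes' called steps being lower.

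Over the whole course the genes ended at different places relative to dry seed, in a comparison of 48 h SL with dry seed in which 35.1% of all probe sets were called. AT4G10270 averaged 188 ± 74.6 in 48 h SL and 14.3 ± 1.74 in dry seed and was called higher, by 2.68 (adjusted p = 1.35e-11). AT4G27450, PDC2 and AT4G39675 were called lower, with differences of -4.99, -3.46 and -1.75. HRA1 was 0.40 higher (adjusted p = 0.00977), all arrays above dry seed, and was not called.

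Against 48 h S, the last group before light, all 5 genes were called lower in 48 h SL, where 16.5% of all probe sets were. The differences were -3.71 for AT4G27450, -3.62 for AT4G39675, -2.45 for AT4G10270, -1.36 for PDC2 and -1.09 for HRA1. The HRA1 call was lost without replicate 1 of 48 h SL, its dimmest array there (-0.91). The 2 whole-course comparisons share the 48 h SL arrays, so their values for one gene are not independent.

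Ordered by mean intensity, HRA1 ran from 1 h SL through 12 h SL, 6 h SL, 12 h S, 24 h SL, 48 h S and 48 h SL, with no overlap of arrays between neighbours in that order, down to dry seed, 1 h S and freshly harvested seed, whose arrays overlapped. PDC2 ran from 12 h S and 1 h S through the overlapping pair of dry and freshly harvested seed to 48 h S, 1 h SL, 48 h SL, the overlapping 24 h SL and 6 h SL, and 12 h SL. AT4G39675 had 12 h S, 48 h S and 1 h SL on top without overlap, then the overlapping run of freshly harvested seed, dry seed and 1 h S, then the overlapping run of 48 h SL, 24 h SL and 6 h SL, with 12 h SL lowest. In AT4G10270 the order was 12 h S, 1 h SL and 12 h SL without overlap, then 6 h SL, 24 h SL and 48 h S, each overlapping with the next, then 48 h SL, and last the overlapping run of 1 h S, freshly harvested seed and dry seed. For AT4G27450 12 h SL stood above all others, dry seed, freshly harvested seed, 1 h S, 6 h SL and 12 h S followed as an overlapping run, 1 h SL overlapped with 24 h SL, and 48 h S and 48 h SL stood alone at the bottom.

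Of the 5 genes, 3 were highest in 12 h S (PDC2, AT4G39675 and AT4G10270), the group in which 8.41% of all probe sets had their highest mean. The profiles fell into different shapes. Over the 10 group means on the log2 scale, HRA1 and AT4G10270 had a Pearson correlation of 0.88 and PDC2 and AT4G39675 one of 0.73, while PDC2 was at -0.50 with both HRA1 and AT4G10270. The remaining pairs lay between -0.04 and 0.27. These correlations describe 10 groups measured on the same arrays.

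HRA1 and AT4G10270 also moved the same way at each step from 1 h S on: higher at 12 h S, lower at 48 h S, higher at 1 h SL, lower at 6 h SL, higher at 12 h SL and lower at 24 and 48 h SL, with no overlap of arrays at any of these 7 steps. This pattern was taken from HRA1 after the values were seen. It was shown by 8 of 22746 probe sets (0.0352%): those of HRA1 and AT4G10270 themselves, AT5G19120 and 5 that carry no gene name here. As the pattern came from these same values, the share is no test of HRA1 and AT4G10270. Of the other low oxygen genes described next 0 of 21 did so, a count that with a share of 0.0352% does not set them apart. The group means of AT1G33055, on that list, moved the same way at all 7 steps, but its 6 h SL and 12 h SL arrays overlapped.

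A list of 45 further genes known to be induced by low oxygen in Arabidopsis had 21 with a probe set that names them. The 21 include AT5G10040, AT5G42200 and AT5G45960, which were dim in every group, with highest group means of 10.4, 6.18 and 5.25. In 12 h S against 1 h S, 7 of the 21 (33.3%) were called higher and 0 lower, against 2.88% and 0.888% of all probe sets. The median difference was 0.39 over the 21 and -0.01 over all probe sets. AT3G23170 averaged 1185 in 12 h S and 43.4 in 1 h S, a difference of 4.35 (adjusted p = 6.70e-15). CML38, a calmodulin-like calcium-binding protein, averaged 235 in 12 h S and 8.72 in 1 h S, a difference of 3.34 (adjusted p = 1.14e-12). The others called higher were AT1G33055 (3.21), AT5G66985, which averaged 145 in 12 h S and 17.1 in 1 h S, AT2G17850, a rhodanese-like protein (1.95), AT1G26270, of the phosphatidylinositol 4-kinase family (1.81), and AT4G17670 (1.47).

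Against dry seed, 9 of the 21 (42.9%) were called higher in 12 h S and 0 lower, against 4.02% and 1.24% of all probe sets. The largest differences were 3.89 for AT3G23170, 3.22 for CML38 and 3.16 for AT1G33055, followed in this list by AT5G66985 (2.23), AT1G26270, which averaged 620.2 in 12 h S and 132 in dry seed, AT2G17850 (2.06) and AT4G24110 (1.57). At the first 2 steps, dry seed against freshly harvested seed and 1 h S against dry seed, 0 of the 21 were called. Of all probe sets 0.321% and 0.514% were called there, so a count of 0 does not set these genes apart.

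Between 12 h and 48 h of stratification 5 of the 21 were called lower and 3 higher, and 18.4% of all probe sets were called in either direction. AT3G23170 averaged 11.4 in 48 h S and 1185 in 12 h S, a difference of -5.44, and CML38 averaged 11.8 in 48 h S and 235 in 12 h S, a difference of -3.17. The other genes called lower were AT1G19530 (-2.47), AT4G17670 (-1.28) and AT2G15880, an extensin-like protein (-1.04). Those called higher were AT5G44730, of the haloacid dehalogenase-like hydrolases (1.34), AT4G24110 (1.09) and AT1G74940 (1.03).

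In 1 h SL against 48 h S, 3 of the 21 (14.3%) were called higher and 0 lower, against 0.567% and 0.220% of all probe sets. AT3G27220, a kelch repeat protein, averaged 266 in 1 h SL and 34.3 in 48 h S, a difference of 2.47 (adjusted p = 3.19e-08). AT3G23170 was higher by 1.53 and AT1G33055 by 1.07. HRA1, at 3.40, and AT4G10270, at 1.39, were called higher in that step too.

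Later in light, 4 of the 21 genes (19.0%) were called lower in 6 h SL against 1 h SL and 0 higher, where the share of all probe sets called lower was 4.39%. In 12 h SL against 6 h SL 5 of the 21 (23.8%) were called higher and 0 lower, against 2.75% and 1.59% of all probe sets. In 24 h SL against 12 h SL 3 were called higher (14.3%) and 2 lower (9.52%), against 4.92% and 2.3% of all probe sets. In that step HRA1, AT4G10270 and AT4G27450 were called lower and AT4G39675 higher. In 12 h SL against 48 h S 9 of the 21 (42.9%) were called higher and 1 lower (4.76%), against 10.1% and 9.04% of all probe sets. Of the 21, 6 had their highest mean at 12 h SL and 6 at 24 h SL (28.6% each), where 7.33% and 7.86% of all probe sets did.

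In 48 h SL against 24 h SL 12 of the 21 (57.1%) were called lower and 0 higher, beside the 3 of 5 called lower above. The share of all probe sets called lower in that step was 3.04%. The median difference was -1.27 over the 21 and -0.001 over all probe sets. Seed markers moved in the same step: OLEO3 averaged 52.2 in 48 h SL and 250.0 in 24 h SL and AT3G01570 averaged 16.6 and 149, and AT1G03890 was already at 4.92 in 24 h SL. The 3 markers summed to between 61.9 and 86.6 in 48 h SL and between 369 and 428 in 24 h SL, and their part in the result was not tested. In 48 h SL against dry seed 8 of the 21 (38.1%) were called higher and 3 (14.3%) lower, against 19.7% and 15.4% of all probe sets. Against 48 h S 4 (19.0%) were called higher and 5 (23.8%) lower, against 15.2% and 16.5% of all probe sets, shares near those of the array as a whole.

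**Figure D3:**
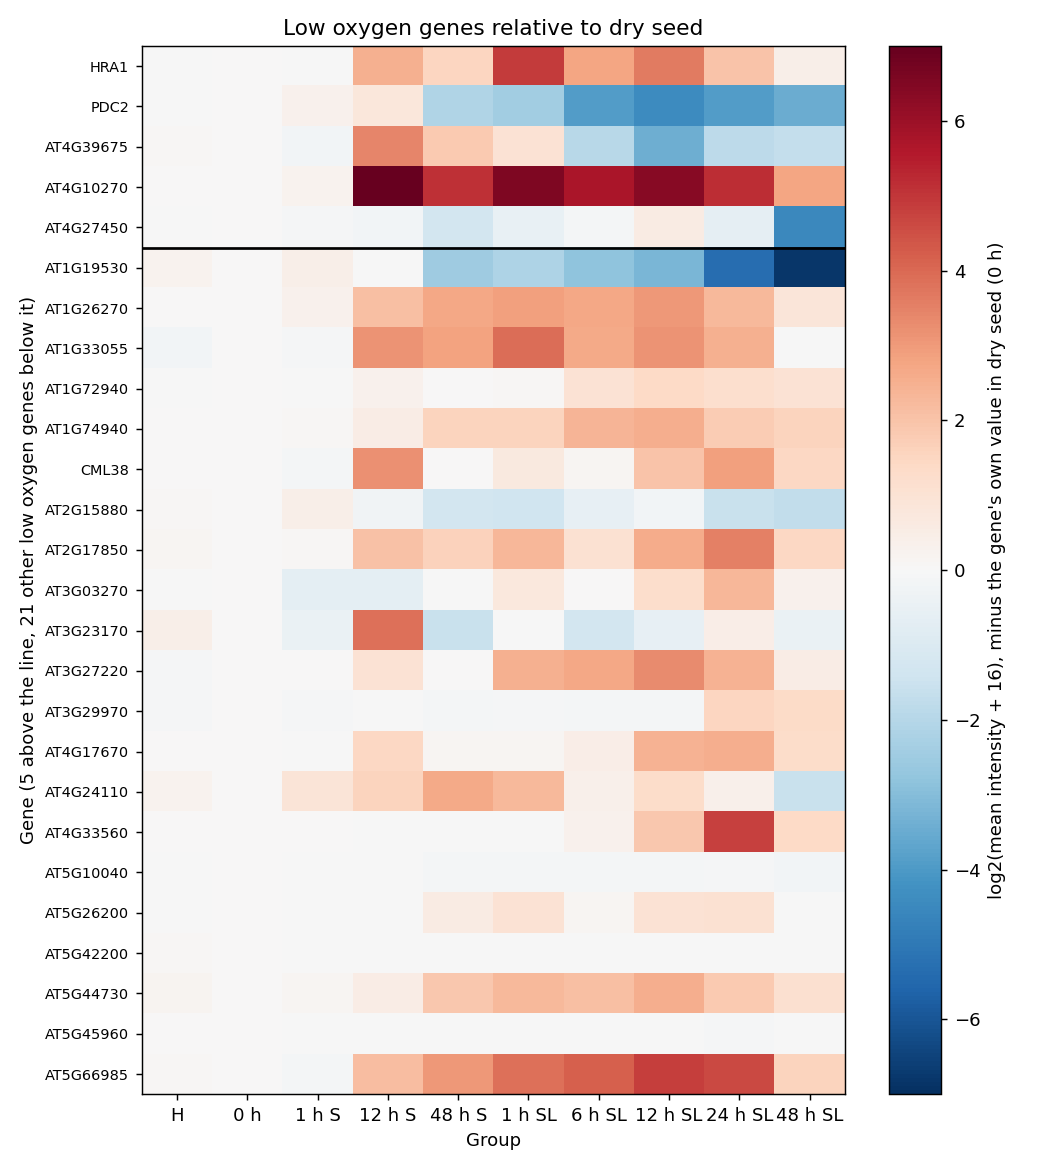
Log2(mean intensity + 16) of each gene in each group minus its own value in dry seed (colour), for the 5 genes (above the line) and the 21 other low oxygen genes (below it). Groups run from freshly harvested seed to 48 h of light, and dry seed is 0 by construction. AT4G10270 was 7.19 above dry seed in 12 h S and PDC2 stood at -3.46 in 48 h SL.

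Of 16 genes listed for fermentation and the entry of sucrose, 1 had a probe set naming it besides PDC2, the lactate dehydrogenase gene AT4G17260, whose enzyme makes lactate from pyruvate. It averaged 85.0 in 12 h S and 19.9 in 1 h S, a difference of 1.51 (adjusted p = 9.94e-10), and 33.6 in 48 h S, a difference of -1.03 from 12 h S. It was 1.74 higher in 12 h S than in dry seed. In 48 h SL it averaged 127, against 14.3 in dry seed, and was called higher by 2.24, whereas PDC2 was called lower in the same comparison. Its highest mean was 183, in 24 h SL. The alcohol dehydrogenase and the other pyruvate decarboxylase genes, and all 15 genes listed for oxygen sensing, had no probe set that names them and were not analysed here.

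The genes whose profiles were most like each of the 5 were found by Pearson correlation of group means on the log2 scale over the 10 groups, among 3575 named probe sets that varied enough to rank. For HRA1 they were AT1G33055 (0.92), AT5G19120 (0.91) and AT1G04770 (0.91). For AT4G10270 they were AT2G37050 (0.97), AT1G32860 (0.96) and AT1G33055 (0.95), so AT1G33055, which is also on the list of other low oxygen genes, stood near both. The genes nearest to PDC2 were AT2G44310, AT1G50290 and AT1G22610, all at 0.99, and those nearest to AT4G39675 were AT4G01870 (0.98), SAT32 (0.96) and AT2G30990 (0.96). AT4G27450 had the loosest matches, AT5G09270 (0.90), AT4G23050 (0.90) and AT1G15920 (0.89). These values share arrays and normalization and are given as a description.

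The 3 arrays of 48 h SL stood apart from one another in these genes. AT4G27450 was at 46.6 in replicate 1, 258 in replicate 2 and 519 in replicate 3. HRA1, AT4G39675 and AT4G10270 were also lowest in replicate 1 and highest in replicate 3, which made 4 of 5, PDC2 being the exception, and 15 of the 21 other low oxygen genes had the same order. Of all 22746 probe sets 16.7% did. Among the 15, AT5G10040 (6.32, 6.83 and 9.12), AT5G26200 (4.27, 4.88 and 6.07) and AT5G45960 (4.73, 4.80 and 5.04) were at the dim end of the array, where an order may be noise. This order was noticed after the values were seen.

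Relative to the group mean on the log2 scale, the 5 genes had median deviations of -0.56, 0.05 and 0.48 in replicates 1, 2 and 3, and the 21 others -0.34, -0.04 and 0.34. The 3 seed markers had medians of -0.001, 0.02 and -0.03, with OLEO3 at 65.1, 50.5 and 41.1. The replicate numbers have no order in time, and the source of the spread was not tested. The calls at 48 h SL against 24 h SL kept their direction without any 1 of the 6 arrays, with AT4G27450 between -5.02 and -3.48, AT4G10270 between -2.73 and -2.17 and HRA1 between -1.78 and -1.42.

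**Figure D4:**
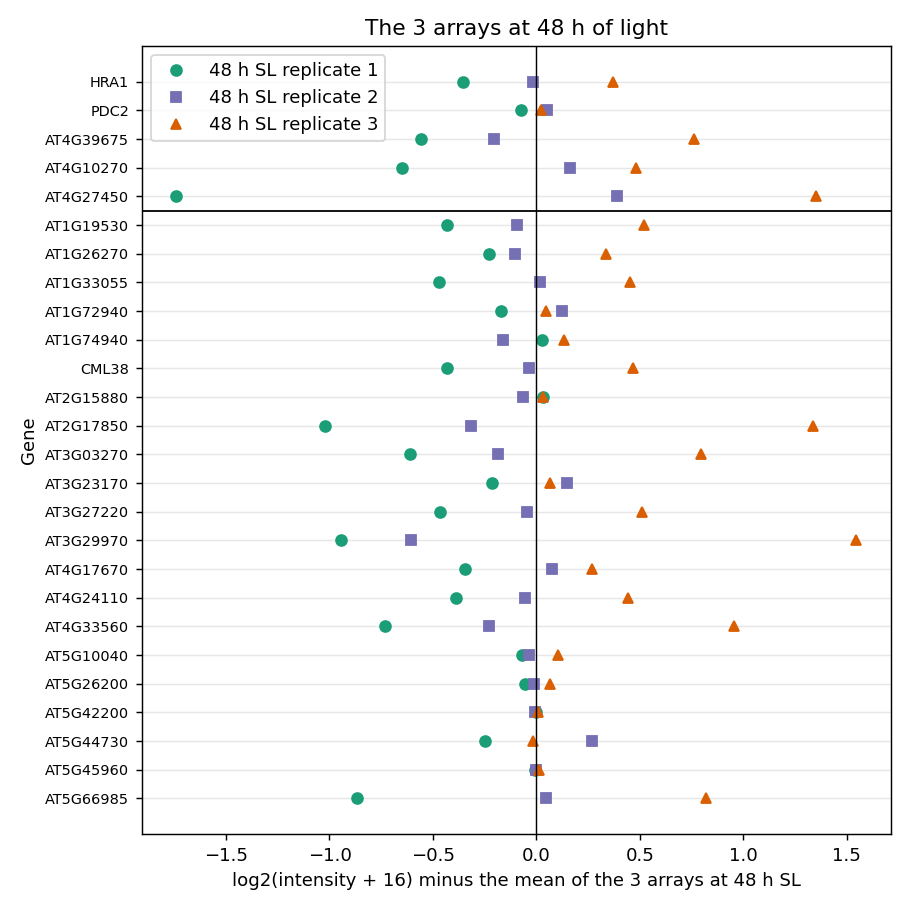
Log2(intensity + 16) on each of the 3 arrays of 48 h SL minus the mean of the 3, for the 5 genes (above the line) and 21 other low oxygen genes (below it). Circles, squares and triangles are replicates 1, 2 and 3. Replicate 1 lay lowest and replicate 3 highest in 4 of the 5 and in 15 of the 21.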

How the data were processed

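The deposited intensity values, per the file headers 1 column for each of 30 arrays, are on a linear scale and had been summarized and normalized by the authors. MAS5, RMA and Partek are named per the submitters' processing notes, and no source used here says which of them, in what version, produced the table. No detection calls or scanner files were used, so dim values are given as they are, and 3 arrays a group limit the precision. Of 22810 probe sets 64 controls were left out. Of the 22746 tested, 13513 name 1 gene, 503 several and 8730 none in the platform annotation, and only probe sets with 1 gene were named.

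Log2(intensity + 16) was fitted with limma 3.58.1 in R 4.3.3, with 1 mean per group over all 30 arrays (20 residual and 1.2052 prior degrees of freedom), and the fit was checked on simulated data. Of 14 comparisons 1 was added after the data were seen. P-values were adjusted by Benjamini-Hochberg over all probe sets. The 5 genes and the lists were chosen with earlier results of these data known. All 5 genes were named, and of the 3 lists of low oxygen, fermentation and oxygen sensing genes together the called ones, at most the 8 of largest difference in each of 4 comparisons. Likeness used probe sets with 1 gene, a highest group mean of at least 50 and a range of at least 2 on the log2 scale. Alternatives were other added constants, quantile normalization, median centring, dim probe sets left out, the replicate number as a block, a fit of the 2 groups compared, and each array left out. Promoter motifs and sequences were not analysed here. Figures were drawn with matplotlib 3.10.9.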

Additional observations from a re-analysis of the deposited data

How the results depend on the processing

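Of 42 called results for the 5 genes, 560 of 576 alternative settings kept direction and call, 16 lost the call and 0 changed sign. Of 28 uncalled ones 368 of 389 kept both, 5 gained the call and 16 changed sign. The main differences behind those 16 lay between -0.06 and 0.11. The AT4G39675 difference in 48 h SL against 24 h SL went to -0.27 without replicate 3 of 48 h SL, so its direction rests on single arrays. With 64 added to each intensity the calls of AT4G39675 in 12 h SL against 6 h SL (-0.72) and 24 h SL against 12 h SL (0.79), and of HRA1 in 48 h SL against 24 h SL (-0.86), 48 h S against dry seed (0.69) and 48 h SL against 48 h S (-0.53), were lost, as that constant shrinks dim values.

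Counts of called probe sets moved by over 1.5 times with the added constant in every comparison but 48 h SL against dry seed. With 64 in place of 16, and with 1 in its place where a further count follows, they were 38, against 73, and 133 with 1 for dry against freshly harvested seed; 40, against 117, and 345 for 1 h S against dry seed; 482 against 857 for 12 h S against 1 h S; 2640 against 4186 for 48 h S against 12 h S; 101, against 179, and 295 for 1 h SL against 48 h S. In light they were 1047 against 1974 for 6 h SL against 1 h SL, 471, against 987, and 1692 for 12 h SL against 6 h SL, 861, against 1642, and 2649 for 24 h SL against 12 h SL, and 898, against 1739, and 2840 for 48 h SL against 24 h SL. Over longer spans they were 610, against 1197, and 1958 for 12 h S against dry seed, 3163 against 4846 for 48 h S against dry seed, 4695 against 7218 for 48 h SL against 48 h S and 2655 against 4365 for 12 h SL against 48 h S. Fitting only the 2 groups compared gave 28 for dry against freshly harvested seed, 9 for 1 h S against dry seed and 116 for 1 h SL against 48 h S. Leaving out 1 array gave 90 to 212 for 1 h S against dry seed, the most without replicate 3 of dry seed.

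The sign changes were in dry against freshly harvested seed, with AT4G10270 at 0.011 and AT4G27450 at -0.012 after quantile normalization and AT4G27450 at -0.0074 after centring, and in 1 h S against dry seed, with HRA1 at 0.023 after quantile normalization and 0.0080 after centring. Without 1 array, dry against freshly harvested seed ranged from -0.055 to 0.14 for PDC2, -0.19 to 0.042 for AT4G39675, -0.056 to 0.068 for AT4G10270 and -0.016 to 0.035 for AT4G27450, and AT4G39675 in 48 h SL against 24 h SL from -0.27 to 0.39. Centring moved the median difference of all probe sets to -0.36 from -0.05 in 48 h SL against dry seed and to -0.24 from -0.02 in 48 h SL against 48 h S, and quantile normalization moved the share of calls that were higher in 1 h S against dry seed to 56.5% from 70.1%.

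Same-numbered arrays correlated between -0.26 and 0.30 after group means were removed, and in 0 of 14 comparisons were all pairs over 0.1. These correlations cannot show whether same-numbered samples share a batch or culture. With the replicate block 12 h S against dry seed had 1196 calls in place of 1197, 1 h SL against 48 h S had 178 calls in place of 179 and 48 h SL against 48 h S 7216 in place of 7218, and 0 calls of the 5 genes changed.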
